A study of Mus musculus with 12 samples.

Results

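The transcripts described here are those of the proteasome subunit genes, taken as every row of the expression table whose symbol is Psma, Psmb, Psmc or Psmd followed by a number. The rule found 39 of 23230 genes. Of these, 19 are core subunits (Psma and Psmb) and 20 are regulatory subunits (Psmc and Psmd). The rule used names only and no measured value.

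The proteasome is the protease that degrades proteins tagged with ubiquitin. Its core particle is a barrel of stacked rings: alpha subunits (Psma) form the outer rings and gate the entrance, and beta subunits (Psmb) form the inner rings. The products of Psmb5, Psmb6 and Psmb7 carry the catalytic sites, and in immune cells and the thymus they are replaced by those of Psmb8, Psmb9, Psmb10 and Psmb11. The regulatory particle sits on the barrel, and in it the Psmc ATPases unfold the substrate while Psmd subunits bind ubiquitin or remove it. In oocytes the proteasome is known for the destruction of cyclin B and securin at the meiotic divisions.

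The study asked how maternal mRNAs depend on ZAR1 and ZAR2, RNA-binding proteins of the oocyte. RNA was sequenced from 12 libraries of 10 oocytes each, in 6 groups of 2: wild-type (WT) and Zar1/2-null oocytes at the growing, germinal vesicle (GV) and metaphase II (MII) stages. All females were of a C57BL6/ICR hybrid background and received no drug treatment beyond the hormones named here. Growing oocytes came from females of 13.5 days in the labels (the study's methods give a slightly younger age). GV oocytes are fully grown, were arrested in prophase I and came from females of 21 days at 44 h after PMSG, the hormone that makes follicles grow. MII oocytes were ovulated and were collected 16 h after hCG, the ovulatory hormone. In the study's superovulation method PMSG was given 44 h before hCG. The labels give no age for the MII females, and that method names an age close to that of the GV females. The Zar1/2-null females lacked both genes in every tissue, through small deletions made with CRISPR/Cas9. By the study's account many ovulated null oocytes had not completed the first meiotic division, so the null MII group mixes stages.

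Levels are FPKM (fragments mapped to a transcript, divided by its length and by the library's mapped fragments) that the authors had multiplied by a factor from the ERCC spike-in RNA of each library, so that they approximate an amount per oocyte. In a pool of oocytes, fewer cells and less RNA per cell cannot be told apart. The cDNA was primed with oligo-dT on poly(A) tails. For several mRNAs the study reported tails that lengthened during maturation in WT but not in null oocytes. A difference in tails and a difference in amount cannot be told apart in these levels. The factors lay between 0.697 and 1 in WT growing and GV libraries, between 0.533 and 0.862 in null growing and GV libraries, and between 0.225 and 0.283 in the 4 MII libraries. The targeted Zar1l (Zar2) read 504 to 644 FPKM in WT growing and GV libraries and 13.2 to 20.9 in the null ones. Zar1 read 136 to 460 FPKM in null growing and GV libraries, against 423 to 725 in WT, which does not check a small deletion. All 10 oocyte markers were present, and summed granulosa markers reached at most 27.9 FPKM.

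Constitutive subunit transcripts were abundant before maturation, and core exceeded regulatory subunits. The 34 constitutive members that reached 1 FPKM in at least 1 library had a median of 134 FPKM in WT GV oocytes, against 6.87 over all 11502 genes that reached that level. The median of the 14 constitutive core subunits was 280.1 FPKM in WT growing and 278 in WT GV oocytes, and that of the 20 regulatory subunits was 109 and 78.4. FPKM is a level per transcript length, but the authors kept uniquely mapped reads. Genes with copies elsewhere in the genome, given below, may therefore read too low, which limits comparison between genes.

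The alpha ring held the most abundant members. Psma2 read 1040 and 893 FPKM in the WT growing libraries and 1156 and 893 in the WT GV libraries, and Psma7 read 870 and 886, then 895 and 799. The other alpha subunits had means of 187 to 295 FPKM in WT GV oocytes. Among the beta subunits, Psmb2 was highest with 502 and 443 FPKM in the WT GV libraries. The catalytic Psmb5, whose product cuts after hydrophobic residues, was lowest of the constitutive core with 115 and 90.7 FPKM. Of the 50-base windows of its transcript 60.3% also occur outside the gene, so that rank is uncertain.

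Regulatory subunits spread further. Psmd4, a ubiquitin receptor, read 266 and 238 FPKM in the WT GV libraries, 6.92-fold above on the means Psmd2, another base subunit that docks ubiquitin-like proteins, with 38.7 and 34.02. The 6 ATPases were close to each other, from 56.4 FPKM for Psmc3 to 155 for Psmc5. Psmd13, a lid subunit, stood apart with 2.28 and 1.81 FPKM, far below the next lowest constitutive member, Psmd3, with a mean of 19.98. Whether the gene model used for Psmd13 was complete could not be checked, so its levels are uncertain.

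**Figure D1:**
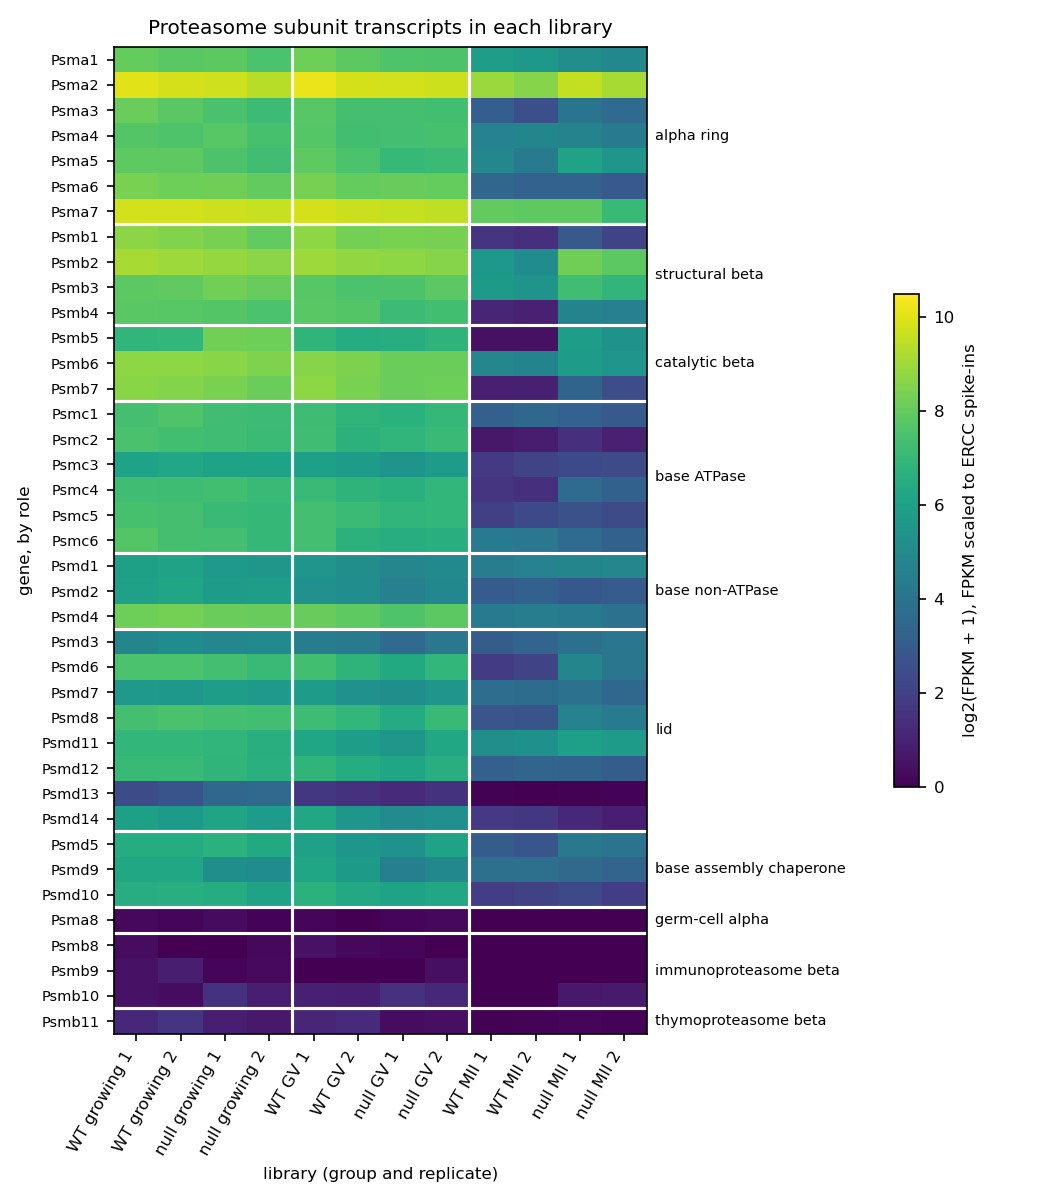
Level of the 39 proteasome subunit genes (rows, by role) in each of the 12 libraries (columns), as log2(FPKM + 1) on the ERCC scale. All 34 constitutive members are lower in both WT MII libraries than in either WT GV library, the beta ring is brighter in null MII than in WT MII, and Psma8, Psmb8 and Psmb9 stay near 0 throughout.

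The specialised subunits were near the limit of the table. Psma8, the alpha subunit of the testis proteasome, had its highest value, 0.254 FPKM, in a null growing library and was listed at 0 in both WT MII libraries. The immunoproteasome subunit Psmb8 peaked at 0.434 FPKM in a WT GV library and was listed at 0 in 6 of the 12 libraries. Psmb9, of the same particle, peaked at 0.856 FPKM in a WT growing library and was at 0 in 7. These 3 genes never reached 1 FPKM and were tested nowhere, which leaves 36 of 39 members (16 core, 20 regulatory) in every count that follows.

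Psmb10, also of the immunoproteasome, read 0.418 and 0.276 FPKM in WT growing, 0.899 and 0.824 in WT GV, and 0.0205 and 0 in WT MII libraries. In the null libraries it read 1.92 and 0.841 at the growing stage, 1.83 and 1.29 at GV, and 0.644 and 0.674 at MII. The null libraries lay above the WT libraries of each stage, but no library exceeded 1.92 FPKM. The GV difference was not called on the ERCC scale (log2 change 0.45 ± 0.19, adjusted p = 0.0752) and was called without ERCC scaling (0.83, adjusted p = 0.0244) and with equal medians (0.65, adjusted p = 0.0165). The summed level of 8 immune markers was 0.564 to 1.42 FPKM in WT growing and 3.19 in both null growing libraries, where Cd68 was the sole marker above 1 FPKM and 4 were at 0. At MII the same sum was 0.791 to 0.837 in WT and 0.972 to 1.06 in null libraries. The part of these markers in the Psmb10 difference was not tested.

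Between the growing and the GV stage, some regulatory subunit transcripts were lower in WT oocytes and no core transcript was called. No member was higher and 5 of 36 were lower (limma on log2(FPKM + 1) with 1 term per group and Benjamini-Hochberg adjustment over all 11502 genes, adjusted p under 0.05, as in all counts below), all 5 of them regulatory. Over all genes 2.77% were called higher and 28.7% lower. At an unadjusted p under 0.05, 1 member was higher and 8 were lower. The median log2 change was −0.11 for core and −0.39 for regulatory subunits, beside −0.29 over all genes.

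The 3 largest changes were in the lid and base. Psmd13 fell by 0.95 ± 0.15 (SE) on the log2 scale, from 4.26 and 5.58 to 2.28 and 1.81 FPKM (adjusted p = 0.00204). Psmd11, another lid subunit, went from 123 and 124 to 73.2 and 57.4 FPKM, a log2 change of −0.92 ± 0.23 (adjusted p = 0.0141). Psmd2 went from 63.6 and 73.8 to 38.7 and 34.02 FPKM, a log2 change of −0.90 ± 0.16 (adjusted p = 0.0039). The libraries of the 2 stages did not overlap for any of the 3. Without ERCC scaling, or with libraries scaled to equal medians, Psmd13 alone of the 5 calls remained. The count was 2 without WT growing replicate 2 and 2 without WT GV replicate 2, and Psmd11 lost its call without either of these (adjusted p = 0.0778 and 0.121) and without WT growing replicate 1 (adjusted p = 0.0585).

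From GV to MII, every tested proteasome transcript was lower in WT oocytes. All 36 members were called lower and none higher, at an unadjusted p too, beside 93.4% lower and 0.104% higher over all genes, so the direction is that of nearly the whole transcriptome. The median log2 change of the members was −3.45 (core −3.34, regulatory −3.48), against −1.28 over all genes. These medians start from unlike levels, 133 FPKM for the members and 6.87 for all genes in WT GV oocytes. On log2(FPKM + 1) a low gene cannot fall as far as an abundant one. By the study's rule for degraded transcripts, a mean more than 10-fold lower at MII with means under 1 FPKM set to 1, 19 of 36 members qualified (8 core, 11 regulatory), beside 15.7% of all genes. With that floor a gene under 10 FPKM at GV cannot qualify, and 6588 of all 11502 genes read under 10, against 3 of 36 members. The 34 constitutive members kept a median of 7.71% of their GV level, and the 4885 genes with a WT GV mean of at least 10 FPKM kept 18.9%. Under 10% was left for 20 of these 34 members and for 1784 of these 4885 genes.

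By role, the changes were largest in the constitutive beta ring and the ATPases. The median log2 change was −6.22 for catalytic and −5.13 for structural beta subunits, −4.49 for the ATPases, −2.80 for the alpha ring and −2.59 for the lid. Psmb7, the catalytic subunit of trypsin-like specificity, went from 416 and 331 FPKM at GV to 0.887 and 0.906 at MII, which left 0.24% (log2 change −7.62 ± 0.25, adjusted p = 2.72e-10). Psmb1 went from 416 and 315 FPKM to 2.00 and 1.77 (log2 change −6.98 ± 0.25, adjusted p = 5.16e-10). Psmb4 went from 225 and 204 FPKM to 1.21 and 0.930 (log2 change −6.71 ± 0.14, adjusted p = 7.99e-11). Psmb5 fell to 0.385 and 0.390 FPKM, or 0.376% of its GV mean. Psmb6, the catalytic subunit of caspase-like specificity, kept 7.49%, going from 380 and 344 FPKM to 28.3 and 25.9.

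Other members of the same particle kept far more. Psmd1, a scaffold subunit of the base, had the smallest change, from 44.0 and 35.8 FPKM to 20.4 and 24.4, which left 56.2% (log2 change −0.80 ± 0.15, adjusted p = 0.000397). Psmd11 kept 55.6%, Psmd3 43.0% and Psma2 42.1%. The range of the 14 constitutive core transcripts therefore widened, from 9.94-fold between the highest and the lowest mean at GV to at least 432-fold at MII (Psma2 with 432 FPKM on average, Psmb5 with 0.387, set to 1 FPKM). Psmd14, the lid deubiquitinase that removes the ubiquitin chain, went from 74.97 and 43.2 FPKM to 2.33 and 2.23. Psmd4 went from 266 and 238 FPKM to 19.3 and 20.7.

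The direction of the weaker falls depended on the ERCC scale. Without ERCC scaling 4 members were called higher and 30 lower, and with equal medians 9 were higher and 23 lower, while the median of all genes moved from −1.28 to −0.43 and 0.09. The same 23 members were called lower on all 3 scales, among them 6 of the 7 constitutive beta subunits (Psmb3 was the exception) and 5 of the 6 ATPases (all but Psmc6). Psmd1 was called higher at MII on both other scales, by 0.91 and 1.77 log2 units, and so were Psmd11 (0.91 and 1.78), Psma2 (0.51 and 1.40) and Psmd3 (0.51 and 1.34).

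In Zar1/2-null oocytes most members were lower at MII as well. From GV to MII 31 of 36 members were called lower (14 of 16 core, 17 of 20 regulatory) and none higher, also at an unadjusted p, beside 68.7% lower and 0.209% higher over all genes. The median log2 change was −2.38, against −0.72 over all genes, again from unlike median GV levels (112 and 4.55 FPKM). Of the 36 members, 13 were more than 10-fold lower (4 core, 9 regulatory), beside 6.66% of all genes. In null GV oocytes 7491 of all genes read under 10 FPKM and could not qualify, against 3 members. Without ERCC scaling 6 members were called higher and 25 lower, with equal medians 8 and 21, and 21 were lower on all 3 scales. Psmb2 and Psmb3, called lower on the ERCC scale (log2 change −0.61 for each), were called higher without ERCC scaling (0.44 and 0.45) and with equal medians (1.08 for each).

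Psmb1 had the largest fall in null oocytes, from 332 and 321 FPKM to 6.73 and 3.41 (log2 change −5.81 ± 0.25, adjusted p = 6.86e-09). The ATPase Psmc2 went from 118 and 133 FPKM to 1.66 and 0.946 (log2 change −5.79 ± 0.20, adjusted p = 2.56e-09), and Psmb7 from 277 and 292 FPKM to 9.38 and 4.60 (log2 change −5.23 ± 0.25, adjusted p = 1.32e-08). Psmc2 was low at MII in WT too, with 0.583 and 0.758 FPKM. The 34 constitutive members kept a median of 16.4% of the null GV level, and the 4885 genes used above kept 37.7%. Under 10% was left for 14 of the 34 members and for 849 of the 4885 genes. Psmd3, Psmd1 and Psmd11 kept 104%, 93.1% and 90.4%.

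**Figure D2:**
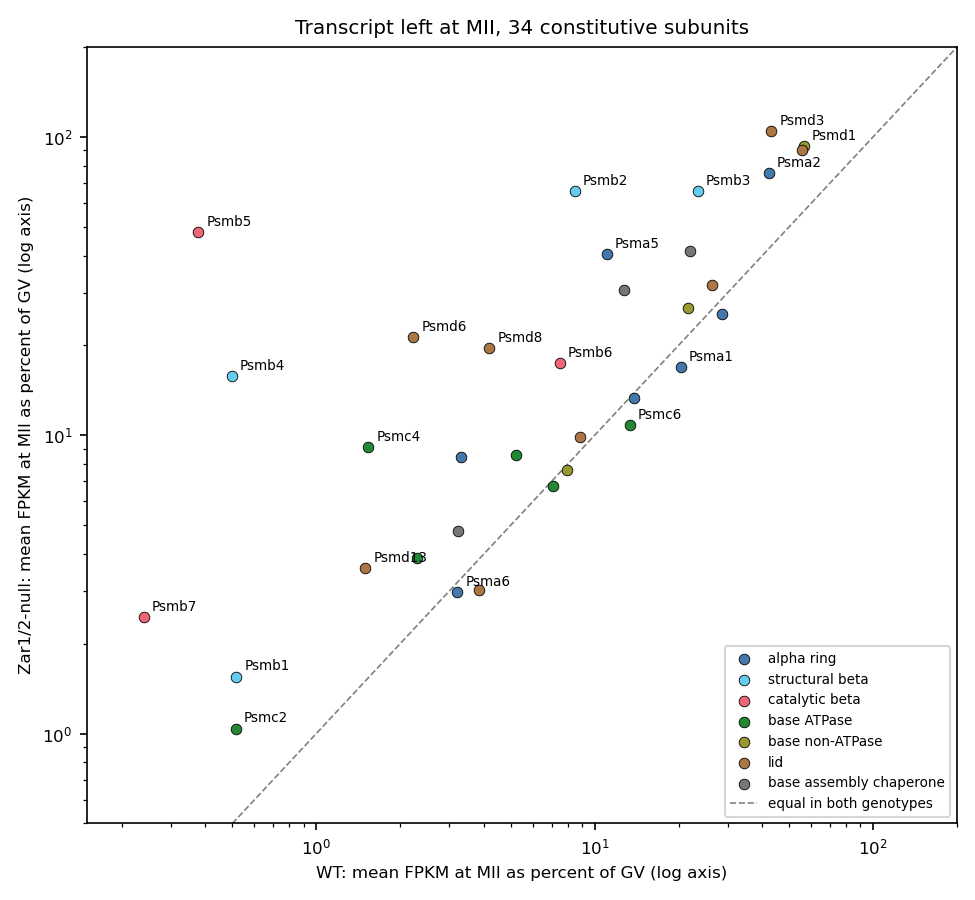
Mean FPKM at MII as a percent of the GV mean, in WT (x axis, log scale) and Zar1/2-null oocytes (y axis, log scale), for the 34 constitutive members coloured by role. All 7 beta subunits lie above the dashed line of equality, with Psmb5 farthest from it (0.376% in WT, 48.0% in null), while Psma1, Psma6, Psmc6 and 5 other members lie just below it.

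In growing oocytes few proteasome transcripts differed between the genotypes. In null against WT, 3 members were called higher and 2 lower of 36, beside 10.6% higher and 24.4% lower over all genes. The median log2 change was −0.19 for the members and −0.16 for all genes. No member was more than 3-fold apart in either direction, beside 0.982% of all genes above and 3.54% below.

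Psmb5 had the largest increase. It read 120 and 123 FPKM in WT and 309 and 286 in null growing oocytes, a log2 change of 1.28 ± 0.19 (2.45-fold, adjusted p = 0.000434). Psmd13 read 4.26 and 5.58 FPKM in WT and 10.3 and 10.9 in null, a log2 change of 0.98 ± 0.15 (2.15-fold, adjusted p = 0.000662). The increase of Psmb10 was 0.79 ± 0.19 on the log2 scale (adjusted p = 0.00856), between means of 0.347 and 1.38 FPKM, and its call was lost without WT growing replicate 2 (adjusted p = 0.0551). The other catalytic subunits were not called: Psmb6 read 423 and 419 FPKM in WT and 393 and 352 in null, and Psmb7 read 396 and 379 in WT and 334 and 274 in null.

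Psmd9, a chaperone of base assembly that leaves the finished particle, was the clearest decrease. It read 76.0 and 76.2 FPKM in WT and 36.8 and 33.9 in null growing oocytes, a log2 change of −1.09 ± 0.18 (2.15-fold lower, adjusted p = 0.0011). Psmb11, a thymus subunit, read 1.23 and 2.06 FPKM in WT and 0.825 and 0.665 in null (log2 change −0.58 ± 0.15, adjusted p = 0.0107), and lost its call without WT growing replicate 2 (adjusted p = 0.0623) or null growing replicate 2 (adjusted p = 0.063), leaving 1 member called lower. Psmb5, Psmb10, Psmd13 and Psmd9 kept their calls on all 3 scales. Summed granulosa markers were 23.5 to 27.9 FPKM in WT and 7.91 to 12.2 in null growing libraries, and their part in these differences was not tested.

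At the GV stage no member was called higher and 7 of 36 were lower (3 core, 4 regulatory) in null oocytes, beside 2.83% higher and 40.6% lower over all genes. At an unadjusted p under 0.05, 1 was higher and 11 were lower. The median log2 change was −0.24 for the members and −0.38 for all genes. None was more than 3-fold apart, beside 0.461% of all genes above and 4.2% below.

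Psmd9 was again the largest decrease, with 73.0 and 52.2 FPKM in WT and 22.1 and 28.7 in null GV oocytes (log2 change −1.26 ± 0.18, 2.46-fold lower, adjusted p = 0.000411). Psmb11 read 1.20 and 1.39 FPKM in WT and 0.275 and 0.354 in null (log2 change −0.80 ± 0.15, adjusted p = 0.00155). Psmd14 read 74.97 and 43.2 FPKM in WT and 32.9 and 38.2 in null (log2 change −0.67 ± 0.24, adjusted p = 0.0414). Psmd2 read 38.7 and 34.02 FPKM in WT and 22.6 and 29.0 in null (log2 change −0.49 ± 0.16, adjusted p = 0.0338). The remaining calls were Psma5, Psmb4 and Psmd1. Psmb5, increased at the growing stage, read 115 and 90.7 FPKM in WT and 91.0 and 112 in null GV oocytes, with overlapping libraries.

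The GV calls depended on the scale and on single libraries. Without ERCC scaling or with equal medians 3 members were higher (Psmb3, Psmb5 and Psmb10) and 2 lower, and Psmb11 and Psmd9 alone kept the call. Psmb5 was then higher by 0.43 and 0.58 log2 units (adjusted p = 0.037 and 0.0212). The count of 7 became 2 without WT GV replicate 1 or null GV replicate 1, and 4 without either WT growing library. Psmd14 lost its call without any single WT growing, WT MII or null GV library and without WT GV replicate 1 (adjusted p = 0.0568 to 0.37), and Psmd2 without WT GV replicate 1 (adjusted p = 0.172) or null GV replicate 1 (adjusted p = 0.191).

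At MII the null oocytes read higher across the constitutive beta ring. Of 36 members 15 were called higher (10 core, 5 regulatory) and 2 lower, beside 21.5% higher and 10.3% lower over all genes. All 7 constitutive beta subunits were among the higher ones, with median log2 changes of 2.098 for the 4 structural and 2.01 for the 3 catalytic subunits. Of the alpha ring, 2 of 7 were higher (Psma3 and Psma5) and Psma1 was lower, with a median of −0.20. By the study's rule 7 members were more than 3-fold higher (Psmb2, Psmb4, Psmb5, Psmb7, Psmc4, Psmd6 and Psmd8) and none lower, beside 7.49% and 1.32% of all genes. These shares start from unlike levels. With means under 1 FPKM set to 1, a gene needs a null mean over 3 FPKM to be more than 3-fold higher. The median in null MII oocytes was 1.36 FPKM over all genes and 13.3 for the members. A pseudocount of 1 also understates changes of low genes in the calls and medians.

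**Figure D3:**
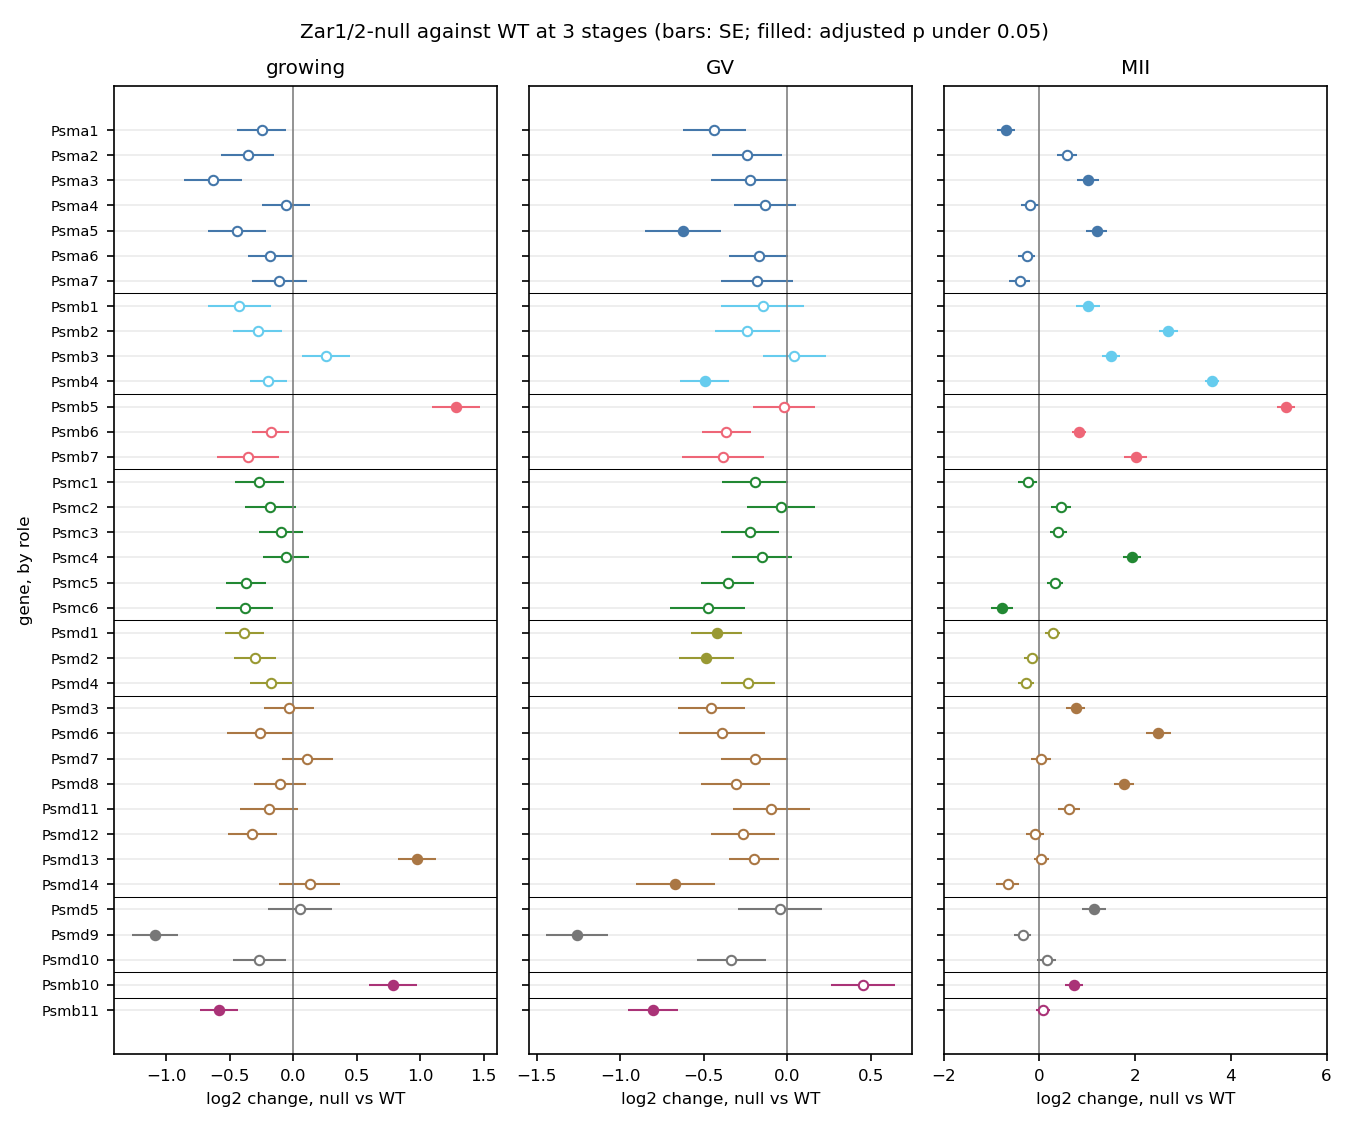
log2 change of null against WT for the 36 tested members at the growing, GV and MII stages (x axes differ between panels), with SE as bars and filled points where the adjusted p was under 0.05. At MII every constitutive beta subunit is filled and right of 0, whereas the alpha ring and the ATPases lie on both sides of 0, and at GV every filled point is left of 0.

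Psmb5 had the largest difference of all members. It read 0.385 and 0.390 FPKM in WT and 56.4 and 41.1 in null MII oocytes, at least 48.8-fold higher with the WT mean set to 1 FPKM (log2 change 5.15 ± 0.19, adjusted p = 3.85e-09). Its null MII mean was 48.0% of the null GV mean. Psmb4 read 1.21 and 0.930 FPKM in WT and 25.2 and 22.9 in null, 22.5-fold higher (log2 change 3.60 ± 0.14, adjusted p = 8.88e-09). Psmb2 read 47.0 and 33.1 FPKM in WT and 295 and 230 in null, 6.56-fold higher (log2 change 2.69 ± 0.19, adjusted p = 9.04e-07).

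The remaining beta subunits differed less but without overlap. Psmb7 read 0.887 and 0.906 FPKM in WT and 9.38 and 4.60 in null (log2 change 2.01 ± 0.25, adjusted p = 7.28e-05). Psmb6 read 28.3 and 25.9 FPKM in WT and 52.8 and 45.3 in null (log2 change 0.83 ± 0.15, adjusted p = 0.00105). Psmb1 read 2.00 and 1.77 FPKM in WT and 6.73 and 3.41 in null, 2.69-fold higher. Psmb3 read 52.2 and 42.7 FPKM in WT and 155 and 119 in null, 2.88-fold higher. Psmb10 was higher by 0.72 ± 0.19 on the log2 scale (adjusted p = 0.0134) with every library under 1 FPKM, and lost its call without any of the 4 MII libraries (adjusted p = 0.0634 to 0.0729).

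**Figure D4:**
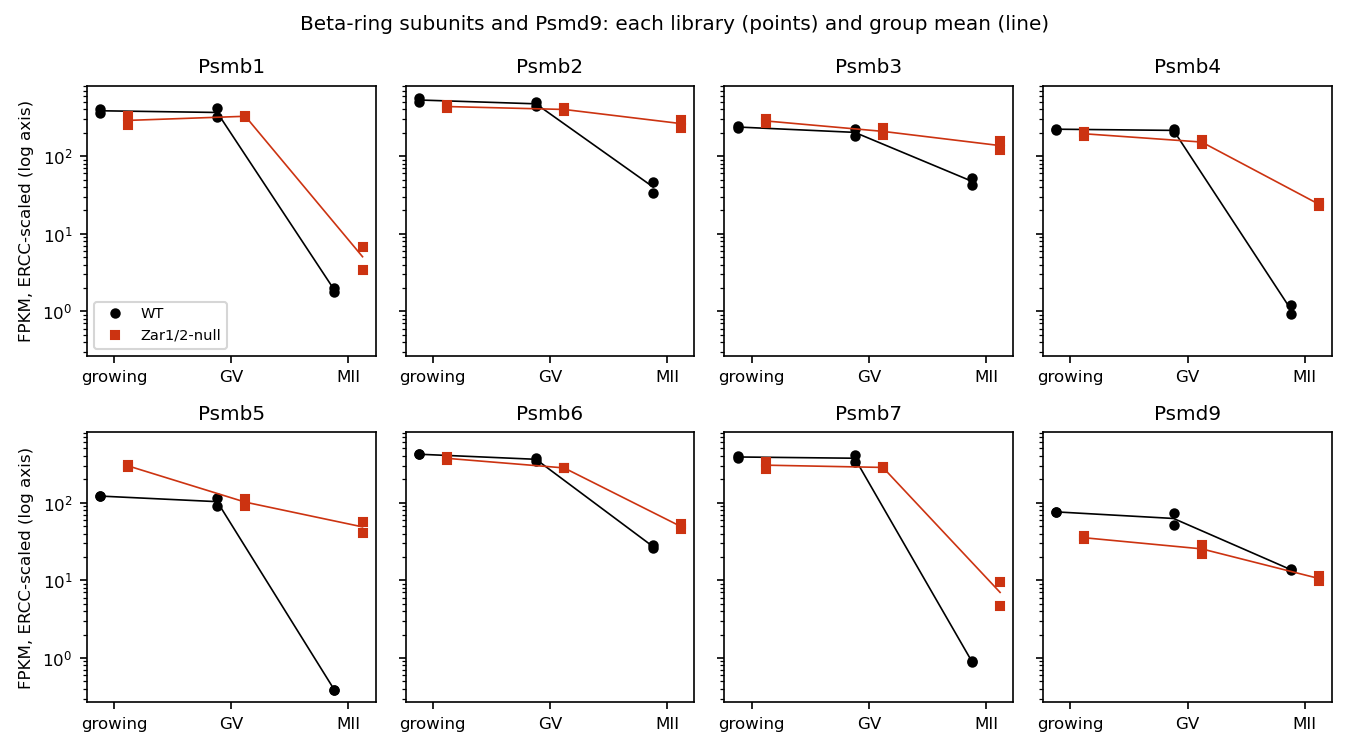
FPKM on the ERCC scale (log axis) of the 7 constitutive beta subunits and of Psmd9 in each library (points) with group means joined by lines, for WT (black circles) and Zar1/2-null oocytes (red squares). The lines separate at MII for every beta subunit, most for Psmb5 (0.387 against 48.8 FPKM), whereas Psmd9 is lower in null oocytes before maturation.

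In the alpha ring Psma5 read 27.7 and 19.1 FPKM in WT and 65.0 and 44.7 in null MII oocytes (2.35-fold), and Psma3 read 7.80 and 4.99 in WT and 15.9 and 11.6 in null (2.16-fold). Psma2, the most abundant member, read 479 and 385 FPKM in WT and 737 and 559 in null, without overlap but not called (adjusted p = 0.0533). In the regulatory particle the higher calls were single members rather than a ring. Psmc4 was the sole ATPase called higher, with 2.04 and 1.77 FPKM in WT and 11.7 and 8.67 in null MII oocytes (5.33-fold). Psmd6 read 2.59 and 3.41 FPKM in WT and 27.1 and 16.6 in null (7.28-fold), and Psmd8, also of the lid, read 5.87 and 5.55 in WT and 24.4 and 19.6 in null (3.86-fold). The lid subunit Psmd3 (1.76-fold) and the assembly chaperone Psmd5 (2.38-fold) were higher too. No base subunit outside the ATPases was called. Psmd7, a lid subunit, had the smallest difference of all members, with 12.6 and 12.1 FPKM in WT and 14.7 and 10.8 in null (log2 change 0.03 ± 0.20, adjusted p = 0.954). Psmd2 read 7.22 and 8.50 FPKM in WT and 6.48 and 7.35 in null, and Psmd4 read 19.3 and 20.7 in WT and 18.6 and 14.2 in null. Psmd14 read 2.33 and 2.23 FPKM in WT and 1.31 and 0.840 in null, which was not called on the ERCC scale (adjusted p = 0.0534) and was lower without ERCC scaling (log2 change −1.16, adjusted p = 0.000418) and with equal medians (−1.19, adjusted p = 0.000836).

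The decreases at MII were small. The ATPase Psmc6 read 19.0 and 16.8 FPKM in WT and 11.6 and 8.59 in null (log2 change −0.78 ± 0.22, adjusted p = 0.0209). Psma1 read 58.1 and 47.8 FPKM in WT and 35.6 and 28.8 in null (log2 change −0.70 ± 0.19, adjusted p = 0.0147). All 15 higher and both lower calls held on all 3 scales. The split of calls moved, to 16 higher and 9 lower without ERCC scaling and 15 and 11 with equal medians. The lower count was 0 without WT MII replicate 1 or null MII replicate 2 and 1 without WT MII replicate 2, and the higher count stayed between 12 and 16 without any single library.

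A direct test of the difference in the GV-to-MII change, null minus WT, asked the same of each gene's own GV level. It called 19 of 36 members higher (11 core, 8 regulatory) and none lower at either an adjusted or an unadjusted p, beside 33.9% higher and 0.643% lower over all genes. The median difference was 0.71 log2 units for the members (core 1.18, regulatory 0.55), against 0.48 over all genes. The members and all genes again started from unlike levels. The largest were Psmb5 with 5.17 ± 0.26 (adjusted p = 1.19e-07), Psmb4 with 4.10 ± 0.20 (adjusted p = 1.17e-07) and Psmb2 with 2.93 ± 0.27 (adjusted p = 1.26e-05). Without ERCC scaling 11 were higher and 8 lower, and with equal medians 9 and 10. The higher calls on all 3 scales were Psmb2, Psmb4, Psmb5, Psmb7, Psmb11, Psmc4, Psmd6 and Psmd8. Of these Psmb11 read at most 1.39 FPKM at GV, and its MII levels were not called different between genotypes (adjusted p = 0.821). The count was 12 without WT GV replicate 1 or null MII replicate 1.

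Core and regulatory subunits set side by side differed most in the MII comparison. Of 16 core members 10 were higher in null MII oocytes with a median log2 change of 0.92. Of 20 regulatory members 5 were higher with a median of 0.21. The median over all genes was 0.06, from lower levels than those of either particle. The median level of the 14 constitutive core transcripts was 24.6 FPKM in WT and 40.5 in null MII oocytes, and that of the 20 regulatory transcripts was 7.34 and 10.1. The higher core median at MII lay in the beta ring and not in the alpha ring. The alpha ring had a median log2 change of −0.20, with 2 of 7 higher and 1 lower. The 10 core calls also include Psmb10, with every MII library under 1 FPKM. Since the members were chosen as named sets and share libraries, these counts are descriptions and no test between the particles was made.

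Partners of the proteasome, 24 genes for activators, an inhibitor, assembly factors, ubiquitin shuttles and transcription factors, were read in the same way. In null against WT, 5 were higher and 4 lower at the growing stage (10.6% and 24.4% over all genes), 2 higher and 7 lower at GV (2.83% and 40.6%), and 9 higher and 2 lower at MII (21.5% and 10.3%). On both other scales 1 was lower at GV, and at MII 6 were lower without ERCC scaling and 7 with equal medians. At GV the lower count was 3 without WT GV replicate 1 and 4 without WT GV replicate 2, and at the growing stage the higher count was 2 without WT growing replicate 1 or null growing replicate 2 and 3 without either other growing library. The 3 largest changes at MII were in factors that work with the core and the lid. Psmg4, a chaperone of core assembly, read 2.30 and 2.90 FPKM in WT and 59.5 and 49.1 in null (log2 change 3.94, adjusted p = 1.17e-08). Shfm1, the small lid subunit also called Sem1, read 54.8 and 45.5 FPKM in WT and 373 and 287 in null (log2 change 2.69, adjusted p = 1.32e-06). Pomp, which matures the beta ring, read 19.1 and 16.3 FPKM in WT and 88.9 and 65.1 in null (log2 change 2.05, adjusted p = 3.31e-06).

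Before maturation other partners led. Nfe2l2, a transcription factor of the oxidative stress response, read 8.92 and 8.94 FPKM in WT and 1.34 and 0.717 in null growing oocytes (log2 change −2.31, adjusted p = 1.08e-05), and 5.08 and 3.98 in WT and 0.614 and 0.491 in null GV oocytes. Psme2, of the activator that caps the core in immune cells, read 24.1 and 23.5 FPKM in WT and 60.8 and 52.3 in null growing oocytes, and 17.4 and 18.0 in WT and 30.5 and 40.6 in null GV oocytes (adjusted p = 0.000258 and 0.000955). Psmg2 at the growing stage and Ubqln2 at GV were the third of each stage, with log2 changes of 0.77 and −1.01 (adjusted p = 0.0442 and 0.011). Psmg2 lost its call without any single library of the growing or MII groups, and Ubqln2 without either WT GV library or null GV replicate 2. Ubqln2 also lost it without ERCC scaling (log2 change −0.65, adjusted p = 0.195) and with equal medians (−0.45, adjusted p = 0.274). Nfe2l1, the factor best known for raising proteasome genes, was called at GV only. It read 10.3 and 9.93 FPKM in WT and 7.75 and 6.32 in null (log2 change −0.47, adjusted p = 0.0262). That call was lost without ERCC scaling and with equal medians, where Nfe2l2 was the sole partner called lower at GV.

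NFE2L1 and NFE2L2 bind the antioxidant response element, whose core letters are TGACNNNGC, so promoters of 250 bases before to 50 after the RefSeq start site (GRCm38.p6) were searched for it on both strands. A promoter was found for 32 of 39 members, and 5 of them held the letters (15.6%), beside 14% of 27025 genes. The windows are shown for the matches in Psmb5, the member with the largest increases, Psmb6, another catalytic subunit, Psmd9, the clearest decrease before maturation, and Psmc6, lower at MII. Capitals mark the match, and a match is a description of letters only. The fifth match was in Psmd12.
Psmb5 (chr14:54618024-54618052, minus strand): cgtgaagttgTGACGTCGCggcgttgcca
Psmb6 (chr11:70525338-70525366, plus strand): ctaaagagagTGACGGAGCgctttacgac
Psmd9 (chr5:123228149-123228177, plus strand): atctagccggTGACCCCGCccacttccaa
Psmc6 (chr14:45329587-45329615, minus strand): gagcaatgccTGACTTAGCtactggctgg

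The centre of the match lay 43 bases before the start site in Psmb5, 27 in Psmd9, 5 in Psmb6 and 223 in Psmc6. Of these genes Psmb5 and Psmb6 were higher and Psmc6 lower in null MII oocytes, and Psmd9 was lower in null oocytes before maturation. The share with the letters was near that of all genes.

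Proteasome transcripts were short. Over the 36 tested members the median transcript length was 1476 bases and the median 3′ UTR was 255.5 bases, against 2664 and 782 over 10765 tested genes with a coding transcript in the mm9 annotation (GENCODE vM1).

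Several members have close copies elsewhere in the genome, which matters because the authors kept uniquely mapped reads. Of all 50-base windows of the transcript, 63.5% in Psmb3 (chr11:97564713-97574814, plus strand, mm9), 60.3% in Psmb5 (chr14:55232644-55236851, minus strand) and 56.6% in Psma5 (chr3:108059844-108082892, plus strand) also occurred outside the gene, so their levels are uncertain. For Psma4, Psma3, Psmd2, Psmd11, Psmc1 and Psmb7 the share was 12.8% to 45.3%. It was 0 for Psmb2 (chr4:126354874-126386958, plus strand), Psmb4 (chr3:94688015-94690883, minus strand), Psmc4, Psmd6 and Psmd8, and 0.863% for Psmd9 (chr5:123678199-123700140, plus strand). The MII difference of Psmb2, Psmb4, Psmc4, Psmd6 and Psmd8 therefore lies in genes whose windows had no exact copy elsewhere. The search covered 1 annotated transcript per gene and exact matches only, so near copies with mismatches would not be seen.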

How the data were processed

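RNA from 12 libraries of 10 oocytes each was converted to cDNA with oligo-dT primers by Smart-seq2 and sequenced. The authors trimmed reads to 50 bases, mapped them to mm9 with TopHat2 2.1.1, kept uniquely mapped reads and computed FPKM with Cufflinks 2.2.1 on UCSC gene models. The deposited FPKM values were multiplied by the authors with a factor per library, described as the ERCC share of WT growing oocytes over that of the library. Both WT growing libraries had a factor of 1 despite different listed ERCC shares, so the reference was not 1 share common to all libraries. WT GV replicates 1 and 2 had equal listed shares but factors of 0.836 and 0.697, so there the reference differed with the replicate number. The factor was taken as 1 for the WT growing libraries and recovered from the values for the others. Dividing by it returned 100% of values to their expected digits in every library. The files used here hold no counts, so depth and counting error are unknown.

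Genes of at least 1 FPKM in at least 1 library (11502 of 23230) were tested with limma 3.58.1 in R 4.3.3 on log2(FPKM + 1), 1 term per group, all 12 libraries in 1 fit, an intensity trend and Benjamini-Hochberg adjustment over all tested genes, threshold 0.05. A pseudocount of 1 understates changes of low genes. Fold rules (3-fold for genotype, 10-fold for maturation) used group means with a floor of 1 FPKM and no test. With 2 libraries a group an exact permutation test could not go below p = 0.333, so no single-gene permutation p is given. No source says that the 2 replicates came from separate females, so p-values measure the spread between these libraries, which may be technical. On simulated data for the GV comparison, limma recovered 196 of 200 genes changed by 4-fold among 11502 and called 7 unchanged genes. The changed genes were drawn from those over 10 FPKM in WT GV oocytes, and no library was shifted as a whole. The simulation therefore does not test smaller changes, such as those of the members at GV (at most 2.46-fold), or shifts of whole libraries.

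Alternatives were no ERCC scaling, equal library medians, a pseudocount of 0.1, a mean filter of 5 FPKM, no filter, no trend, only the libraries compared, the replicate number as a block, a floor of 0.1 FPKM, geometric means and each library left out. Genes named in the text are the catalytic and immunoproteasome subunits, Psma8, Psmd14, Psmd2, Psmd4, the 3 largest non-overlapping calls in each direction of each contrast, the smallest changes of 2 contrasts, and the 3 partners of largest change at each stage. Other members are named where a short list of calls or extreme values holds them, chosen after their values were seen. Members and lists were chosen with earlier results of these data known. Gene positions, transcript lengths and 50-base windows came from mm9 with GENCODE vM1, and promoters from RefSeq (GRCm38.p6). Comparisons of protein sequence were not made.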

Additional observations from a re-analysis of the deposited data

Results flagged for a closer look

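The change from GV to MII differed between null and WT oocytes by the interaction term of the limma fit in 19 members, each with a positive difference (null minus WT, log2 units). Among the beta subunits the difference was 5.17 for Psmb5, 4.10 for Psmb4, 2.93 for Psmb2, 2.39 for Psmb7, 1.46 for Psmb3, 1.19 for Psmb6, 1.17 for Psmb1 and 0.87 for Psmb11. In the alpha ring it was 1.82 for Psma5, 1.24 for Psma3 and 0.82 for Psma2. In the regulatory particle it was 2.87 for Psmd6, 2.08 for Psmc4, 2.08 for Psmd8, 1.21 for Psmd3, 1.19 for Psmd5, 0.91 for Psmd9, 0.70 for Psmd1 and 0.68 for Psmc5. Psmb5 changed by −6.22 in WT and −1.05 in null oocytes, and Psmb1 by −6.98 and −5.81, while 0.376% and 0.516% of their GV level was left in WT and 48.0% and 1.55% in null. For Psmd9, Psmb11 and Psmd1 the null GV level was already called lower than the WT level, and their MII levels were not called different (adjusted p = 0.177, 0.821 and 0.204). The MII levels of Psma2 and Psmc5 were not called different either (adjusted p = 0.0533 and 0.152). Over all genes 33.9% were called with a positive difference.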

How the results depend on the processing

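The files used here give no counts, so what depth limits is unknown, and every group has 2 libraries. Counts are given as higher and lower. Without ERCC scaling the null-to-WT counts became 1 lower at the growing stage, 3 and 2 at GV, and 9 lower at MII (4 core, 5 regulatory). The MII-to-GV counts became 4 higher in WT and 6 higher in null, growth in WT 1 lower, and the difference in change 11 and 8. With equal medians the same counts were 1 lower, 3 and 2, 11 lower (4 core, 7 regulatory), 9 and 23 in WT, 8 higher in null, 1 lower, and 9 and 10. Members more than 10-fold lower at MII were 8 in WT and 7 in null without ERCC scaling, and 6 and 5 with equal medians. A filter on means of 5 FPKM left 1 higher and 1 lower at the growing stage. Fitting only the libraries compared left 2 lower at GV. No filter left 1 lower at MII (0 regulatory), and regulatory members lower at MII were 2 with a pseudocount of 0.1, the filter of 5 FPKM or the compared libraries alone. A pseudocount of 0.1 gave 1 higher in WT growth. A floor of 0.1 FPKM gave 1 member more than 3-fold higher at the growing stage and 1 lower at GV.

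Without ERCC scaling the sign turned for 4 of 36 members in WT and 5 in null maturation, and with equal medians for 10 and 12. For null against WT it turned for 17 members at the growing stage, 26 at GV and 2 at MII without ERCC scaling and for 10, 30 and 3 with equal medians. Examples, in log2 units without ERCC scaling and with equal medians, are Psmb5 at GV (0.43, 0.58) and in WT growth (0.14, 0.0845), Psmd7 at MII (−0.20, −0.30) and Psmd1 in WT maturation (0.91, 1.77). With equal medians alone they turned for Psmd2 at GV (0.10) and in WT maturation (0.41), and for Psmb10 (0.28) and Psmb5 (0.62) in null maturation. Leaving out single libraries gave −0.19 to 0.15 for Psmb5 at GV (0.13 without null GV replicate 1) and −0.17 to 0.24 for Psmd7 at MII. Partners lower at GV were 2 and Ubqln2 lost its call (adjusted p = 0.0626) with only the libraries compared, and Psmg2 lost its call with a pseudocount of 0.1 (adjusted p = 0.144) or no filter (adjusted p = 0.1). Partners lower at the growing stage were 2 on both other scales. Geometric means and no trend moved no count by over 1.5 times.

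Leaving out each library gave, for null against WT, 2 to 3 higher and 1 to 3 lower at the growing stage, 0 to 1 and 2 to 8 at GV, and 12 to 16 and 0 to 3 at MII (core 7 to 10 and 0 to 2, regulatory 4 to 6 and 0 to 2). WT growth gave 0 to 1 higher and 2 to 6 lower, and the difference in change 12 to 19 higher. Deviations of same-numbered libraries from their group means correlated across genes by −0.117 to 0.163, over 0.1 in 4 of 15 pairs. Such a correlation cannot show a shift shared by all genes of a library. By itself the correlation therefore does not decide whether the numbers pair the libraries. The ERCC factors do tie libraries by number. WT GV replicates 1 and 2 had equal listed ERCC shares but factors of 0.836 and 0.697. Among the WT growing libraries, replicate 1 likewise had the larger listed share. The scaling reference thus differed with the replicate number, at least at WT GV, and the main fit has no term for that number. Whether the oocytes themselves were paired is unknown. With the replicate block the counts were 4 lower at the growing stage, 1 higher and 11 lower at GV, and 2 regulatory members lower at MII, and over the 7 contrasts no member lost a call and 12 gained one, among them Psmb6 (adjusted p = 0.029) and Psmb10 (adjusted p = 0.0492) at GV and Psma2 and Psmd14 at MII (adjusted p = 0.00305 and 0.0302). The partner Psmg2 lost its call at the growing stage (adjusted p = 0.0521).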
